A study of Mus musculus with 6 samples.

Results

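The genes of the A20 ubiquitin-editing complex, of the TNF receptor-associated factors (TRAFs) and of the cellular inhibitors of apoptosis (IAPs) were followed in mouse macrophages treated with β-elemene or PBS. The members are the 10 rows named Tnfaip3, Tnip1, Tnip2, Tnip3, Cyld, Traf1, Traf2, Traf3, Birc2 and Birc3 in a count table of 21878 genes. All 10 were found and all 10 passed the filter on low counts, among 11459 genes tested, with at least 118 reads in every library. The first group was bone marrow-derived macrophages of wild-type C57BL/6 mice exposed for 24 h to the plant sesquiterpene β-elemene at 100 µg/mL. The second group was the same kind of macrophages given PBS in the same volume and for the same time. Cells of both groups had been grown in 50 ng/mL of the growth factor M-CSF and had then spent 48 h opposite LLC cells (a line of mouse lung carcinoma), separated from them by a membrane with 0.4 µm pores. The medium was changed before treatment. Every comparison here is between β-elemene and PBS in tumour-conditioned cells, and no unconditioned macrophages enter it. There were 3 libraries per group, with 18916844 to 20729887 counted reads each.

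A20, the product of Tnfaip3, is an enzyme that edits and removes ubiquitin chains on signalling proteins and thereby dampens NF-kB signalling below TNF and Toll-like receptors. It is recruited by the ABIN adaptors (Tnip genes), and CYLD is a deubiquitinase that acts on the same signalling complexes. TRAF proteins are adaptors at TNF family receptors, and TRAF2 brings the ubiquitin ligases cIAP1 (Birc2) and cIAP2 (Birc3) to them. Together with TRAF3 these ligases keep the kinase NIK of the noncanonical NF-kB pathway low. Several genes of the group, Tnfaip3, Traf1 and Birc3 among them, are known as NF-kB targets and encode negative feedback or survival factors.

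Levels are given in CPM, read counts scaled to the TMM-adjusted library size. With TMM scaling, all 10 genes were called higher in the β-elemene libraries (not so for Tnip2 and Traf3 with library size alone, nor for Traf3 with upper quartile factors), where 36.6% of all genes tested were called higher, 40.2% lower and 76.7% in either direction (edgeR quasi-likelihood test, Benjamini-Hochberg adjusted p under 0.05 over all genes tested). In CPM with TMM scaling, the lowest β-elemene library stood above the highest PBS library for each of the 10, as it did for 37.9% of all genes tested. The groups were separate in the other direction for 42% of all genes and in either direction for 79.9%. The median log2 fold change (β-elemene over PBS) was 1.90 over the 10 genes and -0.06 over all genes tested. The sizes with TMM were far apart: 8 genes were called and at least 2-fold higher, as were 17% of all genes tested, and 4 rose at least 4-fold. The smallest of these 4, Tnip3, stood above 93.4% of the genes tested by log2 fold change. Of all 10, the largest difference with TMM was that of Traf1 at 76.1-fold and the smallest that of Traf3 at 1.15-fold. These sizes depend on the scaling. With library size alone, Cyld (log2 fold change 0.53) and Birc2 (0.70) were below 2-fold, Tnip3 (1.72) was below 4-fold, and Traf1 stood at 5.61. In such bulk libraries, a change in the number of cells that carry a transcript and a change in the transcript per cell cannot be told apart. The labels do not say that the 3 libraries of a group came from separate cultures, so spread between them, the measure behind each p-value, may be technical only.

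**Figure D1:**
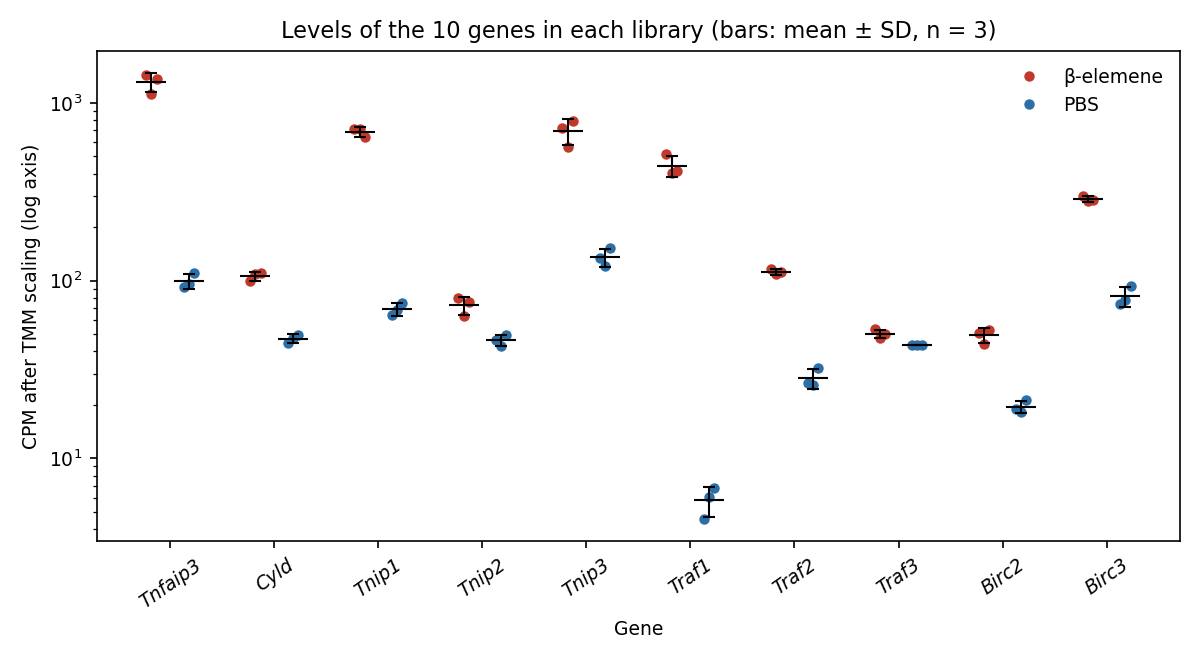
Level of each gene in every library, in CPM (read counts scaled to library size) after TMM scaling on a log axis; dots are single libraries (β-elemene left, PBS right of each pair) and bars give the mean ± SD of 3 libraries. On this scale the groups are separate for all 10 genes, as they are for 79.9% of all genes tested in either direction and 37.9% in this direction. The gap is widest for Traf1 (403 to 513 CPM with β-elemene, 4.57 to 6.78 with PBS) and narrowest for Traf3 (47.6 to 53.2 with β-elemene, 43.4 to 43.6 with PBS). Without scaling, the counts of Tnip2 overlap and those of Traf3 are lower with β-elemene.

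The macrophage label was checked against marker genes. All 7 macrophage markers, Adgre1, Csf1r, Cd68, Itgam, Fcgr1, Mertk and Lyz2, were above 1 CPM in every library. They did not move as one, with 5 called higher and 2 lower. Csf1r, the M-CSF receptor gene, lay between 865 and 997 CPM under β-elemene and between 2591 and 2755 under PBS. Fcgr1 lay between 1370 and 1583 CPM under β-elemene and between 165 and 232 under PBS. The sum of the list, most of it Lyz2, lay between 15338 and 15983 CPM under β-elemene and between 12462 and 13413 under PBS. Of the epithelial markers, which carcinoma cells could carry over, 2 of 6 (Krt19 and Cldn4) were at 0 in all libraries, and the sum of the list stayed at or below 0.155 CPM. Other cell type lists were low. The 6 fibroblast markers summed to between 1.69 and 3.87 CPM under β-elemene and between 13.2 and 17.2 under PBS. Of these, 3 of 5 tested were called lower, and the collagen genes Col1a1, Col1a2 and Col3a1 carried the difference, while Dcn and Pdgfra overlapped between groups. The sum of 7 neutrophil markers lay between 22.3 and 26.0 CPM under β-elemene and between 9.32 and 12.4 under PBS. That difference was mainly S100a8, at 14.8 to 17.1 CPM under β-elemene and 3.24 to 4.76 under PBS. Of 5 tested in this list, 3 were called higher and 1 lower, and Ly6g and Elane were below 1 CPM in all libraries. The T and NK cell, B cell and dendritic cell lists summed to at most 2.89 CPM with β-elemene and 4.45 with PBS. The part of any of these cells in the values below was not tested.

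RefSeq promoter windows (GRCm38.p6), 12 in all, from 250 bases before to 50 bases after an annotated start, were found for all 10 genes. The first windows of 5 genes are printed so that matches to an NF-kB site can be set beside the size of the change. They belong to the 3 genes with a match whose log2 fold change was largest, to Traf3, which has a match and the smallest value, and to Traf1, which has none and the largest value. Each is given 5′ to 3′ on the gene's strand. Capitals mark matches on either strand to the consensus NF-kB site or to the shorter motif GGANNTTCC.
Tnfaip3: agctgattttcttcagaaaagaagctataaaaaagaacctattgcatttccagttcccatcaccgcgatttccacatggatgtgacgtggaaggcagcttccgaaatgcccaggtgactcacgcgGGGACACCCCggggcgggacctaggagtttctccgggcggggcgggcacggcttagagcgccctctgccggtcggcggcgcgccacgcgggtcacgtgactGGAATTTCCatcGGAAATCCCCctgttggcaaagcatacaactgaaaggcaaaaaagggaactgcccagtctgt
Tnip1: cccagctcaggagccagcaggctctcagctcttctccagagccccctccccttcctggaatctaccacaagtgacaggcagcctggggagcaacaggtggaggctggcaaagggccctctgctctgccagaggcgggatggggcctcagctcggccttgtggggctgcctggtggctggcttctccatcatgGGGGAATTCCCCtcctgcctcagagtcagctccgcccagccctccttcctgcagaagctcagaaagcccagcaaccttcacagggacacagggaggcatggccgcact
Tnip3: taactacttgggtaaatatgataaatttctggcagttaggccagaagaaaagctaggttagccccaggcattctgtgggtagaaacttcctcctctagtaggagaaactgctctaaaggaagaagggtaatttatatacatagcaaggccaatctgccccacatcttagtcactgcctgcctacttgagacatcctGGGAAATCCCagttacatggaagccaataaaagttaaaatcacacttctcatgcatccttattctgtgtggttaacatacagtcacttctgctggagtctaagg
Traf3: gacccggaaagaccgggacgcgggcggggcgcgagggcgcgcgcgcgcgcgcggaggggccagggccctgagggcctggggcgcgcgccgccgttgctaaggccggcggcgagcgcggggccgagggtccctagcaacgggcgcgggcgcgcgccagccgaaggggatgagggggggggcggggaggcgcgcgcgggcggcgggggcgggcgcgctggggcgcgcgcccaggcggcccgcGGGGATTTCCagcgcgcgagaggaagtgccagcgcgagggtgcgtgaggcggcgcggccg
Traf1: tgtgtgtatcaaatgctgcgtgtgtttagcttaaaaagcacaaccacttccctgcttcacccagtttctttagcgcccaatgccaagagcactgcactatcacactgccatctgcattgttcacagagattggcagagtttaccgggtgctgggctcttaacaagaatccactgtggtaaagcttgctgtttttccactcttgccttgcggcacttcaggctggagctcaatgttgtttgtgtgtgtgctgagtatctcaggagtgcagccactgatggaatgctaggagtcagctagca
These windows lie at chr10:19015361-19015660 (Tnfaip3, minus strand), chr11:54962891-54963190 (Tnip1, minus), chr6:65590148-65590447 (Tnip3, plus), chr12:111166120-111166419 (Traf3, plus) and chr2:34961723-34962022 (Traf1, minus).

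The consensus NF-kB site was in 4.51% of 32841 windows of the annotation. It occurred in the first windows of 5 of the 10 genes, Tnfaip3, Tnip1, Tnip3, Cyld and Traf3. GGANNTTCC was found in those of Tnfaip3 and Cyld and in 4.26% of all windows. Of these matches the one in Cyld overlaps its consensus match. Positions below count from the start used for each window. For Tnip1, Cyld and Traf3 that start lies inside the gene coordinates given further down. Bases before it can therefore fall within those coordinates. In Tnfaip3 the match ggaaatcccc covers bases -12 to -3 from the start, ggaatttcc covers -24 to -16, and gggacacccc covers -125 to -116. In Tnip1, 3 overlapping consensus matches make up 1 stretch from -58 to -47. In Tnip3 gggaaatccc covers -54 to -45, in Cyld ggaaagtccc covers -155 to -146, and in Traf3 ggggatttcc covers the last 10 bases before the start. An AP-1 element, TGANTCA, was present in the Tnfaip3 window (tgactca, -136 to -130) and in 7.81% of all windows, and the core of the interferon-stimulated response element was in no member window and in 3.44% of all windows. The windows of Birc2, Birc3, Tnip2, Traf1 and Traf2 and the second window of Tnfaip3 held no match to any of the 4 motifs. That says only that these letters are not in these windows. The motifs were chosen after the windows were seen and were read from sequence alone, and binding was not measured. The count of 5 is over genes, which have 12 windows in all, whereas the shares are over windows. Several of the 10 are known NF-kB targets. Enrichment was not tested, and none is read from these numbers. The windows also differed in CpG content, from 0 CpG in Tnip3 and 4 each in Tnip1 and Traf1 to 59 in Traf3.

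Tnfaip3 (chromosome 10, 19000910 to 19015410) had the highest level of the 10 genes with β-elemene. Its levels were 1443, 1127 and 1356 CPM in β-elemene replicates 1, 2 and 3, against 92.2, 96.0 and 110 CPM in PBS replicates 1, 2 and 3. The lowest β-elemene library was far above the highest PBS library. The mean was 1309 ± 163 CPM with β-elemene and 99.4 ± 9.29 with PBS (SD, n = 3 each), or 3.72 as log2 fold change (SE 0.11, edgeR adjusted p = 2.05e-11). By size of log2 fold change it stood above 97.0% of the genes tested. Leaving out 1 library at a time moved this value between 3.66 and 3.84.

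Tnfaip3 was compared with 8877 genes that averaged 5 CPM or more, with Gm, LOC and Rik symbols left out. Those whose centred log2 CPM over the 6 libraries lay nearest to it by Euclidean distance included Stk40, Dusp16 and Nfkbia (0.169, 0.236 and 0.242). Their log2 fold changes were 3.85, 3.80 and 3.70. Nfkbia encodes the NF-kB inhibitor IκBα, with 1186 ± 44.3 CPM under β-elemene and 91.4 ± 10.8 under PBS (SD, n = 3 each). Stk40 is a kinase-like gene and Dusp16 encodes a phosphatase of MAP kinases. With only 2 groups, this likeness mostly measures an equal difference between them. Tnip1 was the nearest of the other 9 members, at a distance of 0.593.

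Cyld (chromosome 8, 88696878 to 88751946), the other deubiquitinase of the group, rose less. It had 98.9, 109 and 110 CPM in the β-elemene libraries, against 44.6, 47.4 and 49.7 CPM in the PBS libraries. Each β-elemene value was above every PBS value, by a much smaller factor than for Tnfaip3. The log2 fold change was 1.17 (SE 0.07, edgeR adjusted p = 1.75e-09), and 0.53 with library size alone.

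The ABIN adaptors, which bind A20 and ubiquitin chains, differed among themselves. Tnip1 (ABIN-1; chromosome 11, 54910787 to 54962956) had 711, 711 and 640 CPM in the β-elemene libraries, against 63.9, 68.8 and 75.2 in the PBS libraries. As log2 fold change this was 3.31 (SE 0.08, edgeR adjusted p = 2.47e-13), the smallest adjusted p of the 10 genes. Tnip3 (ABIN-3; chromosome 6, 65590398 to 65634040) had 725, 566 and 790 CPM with β-elemene, against 133, 121 and 152 with PBS. Its β-elemene libraries spread most widely of the 10 genes, with a coefficient of variation of 16.6%, and yet stayed clear of the PBS libraries. The log2 fold change was 2.36 (SE 0.14, edgeR adjusted p = 8.90e-07).

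Tnip2 (ABIN-2; chromosome 5, 34496096 to 34513979), which besides A20 binds the kinase TPL2 and stabilises it, showed a smaller difference. It had 79.6, 63.0 and 75.5 CPM with β-elemene, against 46.4, 42.7 and 49.2 with PBS. The groups were separate on this scale, and the log2 fold change was 0.66 (SE 0.09, edgeR adjusted p = 1.72e-05). With library size alone the log2 fold change was 0.02 and the call was lost (edgeR adjusted p = 0.823). Its raw counts overlapped, at 1294, 968 and 1231 with β-elemene, against 1198, 1098 and 1261 with PBS.

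Traf1 (chromosome 2, 34941750 to 34961812), a TRAF without the RING domain of its relatives that pairs with TRAF2, was the gene with the largest difference. It had 8342, 6187 and 6705 reads in the β-elemene libraries, against 118, 156 and 174 in the PBS libraries. In CPM these were 513, 403 and 411 with β-elemene, against 4.57, 6.06 and 6.78 with PBS. It was the least abundant of the 10 genes with PBS and the fourth most abundant in CPM with β-elemene. The log2 fold change was 6.25 (SE 0.16, edgeR adjusted p = 1.72e-09), rank 102 among the genes tested.

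Traf2 (chromosome 2, 25517982 to 25546940), the adaptor and ligase that recruits the cIAPs, had 116, 108 and 111 CPM with β-elemene, against 26.5, 25.8 and 32.2 CPM with PBS. The β-elemene libraries lay close together, with a coefficient of variation of 3.32%, and the groups were far apart. Its log2 fold change was 1.99 (SE 0.08, edgeR adjusted p = 8.94e-11).

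Traf3 (chromosome 12, 111166321 to 111267155), which holds NIK in check and also acts in interferon induction, had the smallest difference of the 10. It had 53.2, 47.6 and 49.8 CPM with β-elemene, against 43.5, 43.4 and 43.6 with PBS. On this scale the log2 fold change was 0.21 (SE 0.06, edgeR adjusted p = 0.00866). It turned to -0.11 with upper quartile factors (edgeR adjusted p = 0.124) and to -0.43 with library size alone, where the gene was called lower (edgeR adjusted p = 2.08e-05). The raw counts were 865, 731 and 812 with β-elemene, against 1124, 1118 and 1117 with PBS, so the direction for Traf3 rests on the scaling. By log2 fold change with TMM it stood above 62.7% of the genes tested.

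The cIAP genes lie next to each other on chromosome 9, Birc2 at 7818226 to 7837131 and Birc3 at 7847468 to 7873205. Birc3 had 300, 280 and 283 CPM in the β-elemene libraries, against 74.1, 77.8 and 93.8 in the PBS libraries. The log2 fold change was 1.81 (SE 0.08, edgeR adjusted p = 6.08e-10). Birc2 had 50.9, 44.1 and 52.9 CPM with β-elemene, against 18.9, 18.3 and 21.3 with PBS, or 1.34 as log2 fold change (SE 0.09, edgeR adjusted p = 7.93e-09). Both genes were thus higher in all β-elemene libraries, and Birc3 was the more abundant in every library. Of 125-base windows in annotated transcripts, Birc2 shared none with any other gene, and Birc3 shared 0.637%, with the pseudogene Gm7019. None of the other 8 genes shared such a window, and no annotated gene overlapped an exon of any of the 10.

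**Figure D2:**
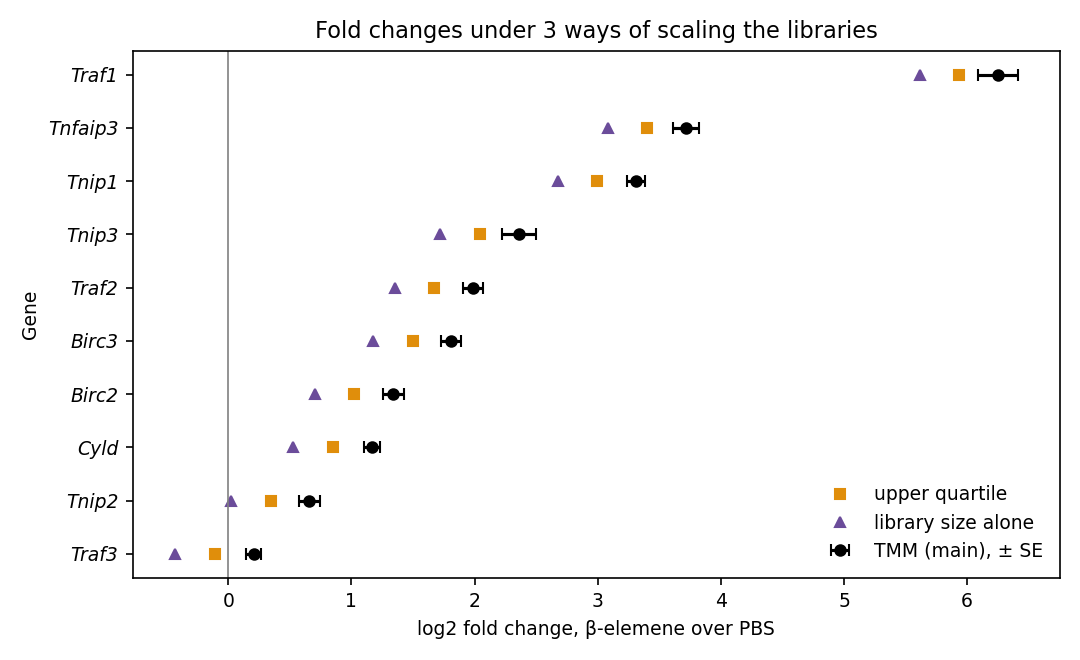
Log2 fold change (β-elemene over PBS) of each gene with TMM scaling (circles, bars ± SE), upper quartile factors (squares) and library size alone (triangles). From TMM to library size alone the points move left by nearly the same amount; 8 genes stay above 0 and called, Tnip2 reaches 0.02 and Traf3 reaches -0.43.

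Scaling mattered because TMM factors were 0.794 to 0.812 for the β-elemene libraries and 1.24 to 1.26 for the PBS libraries. With library size alone the median over all genes tested shifted by -0.64 on the log2 scale, and with upper quartile factors by -0.32. With library size alone 8 of the 10 genes were called higher, where 18.9% of all genes were, and 1 was called lower, where 69.8% of all genes were. With upper quartile factors 9 were called higher, where 25.7% of all genes were, and 0 lower, where 57% of all genes were. Median-of-ratios factors gave the same calls as TMM for all 10 genes.

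The ratio of 2 genes within a library does not depend on that scaling. It was compared for 6 pairs of partners or relatives with an exact two-sided permutation test, which with 3 against 3 libraries cannot go below p = 0.10. All 6 pairs reached that smallest value in the exact permutation test (p = 0.10, also 0.10 after adjustment over the 6 pairs), and no pair overlapped between groups. Of all single genes tested, 79.9% did not overlap between groups, and the share over all possible pairs was not computed, so nothing particular to these pairs is read from that count. Traf1 reads were 3.93 times Traf2 reads with β-elemene and 0.205 times with PBS. The log2 ratios of this pair were 2.15, 1.89 and 1.89 in the β-elemene libraries, against -2.53, -2.09 and -2.25 in the PBS libraries, a difference of 4.26 (SE 0.16). The order of these 2 TRAFs was thus opposite in the groups. Traf3 was lower relative to Traf2 in every β-elemene library, with log2 ratios of -1.12, -1.19 and -1.16 with β-elemene, against 0.72, 0.75 and 0.43 with PBS (difference -1.79, SE 0.10). Traf3 therefore had more reads than Traf2 in all PBS libraries and fewer in all β-elemene libraries.

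Among the ABIN genes, Tnip2 was lower relative to Tnip1 in every β-elemene library, with log2 ratios of -3.16, -3.49 and -3.08 with β-elemene, against -0.46, -0.69 and -0.61 with PBS (difference -2.66, SE 0.14). Tnip3 had about 2 reads per Tnip1 read with PBS (ratio 1.95) and 1.00 with β-elemene, a log2 difference of -0.96 (SE 0.20). Tnfaip3 reads were 12.3 times Cyld reads with β-elemene and 2.10 times with PBS (log2 difference 2.55, SE 0.15). The smallest difference was that of Birc3 against Birc2, with log2 ratios of 2.56, 2.66 and 2.42 with β-elemene, against 1.97, 2.09 and 2.14 with PBS (difference 0.48, SE 0.09).

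**Figure D3:**
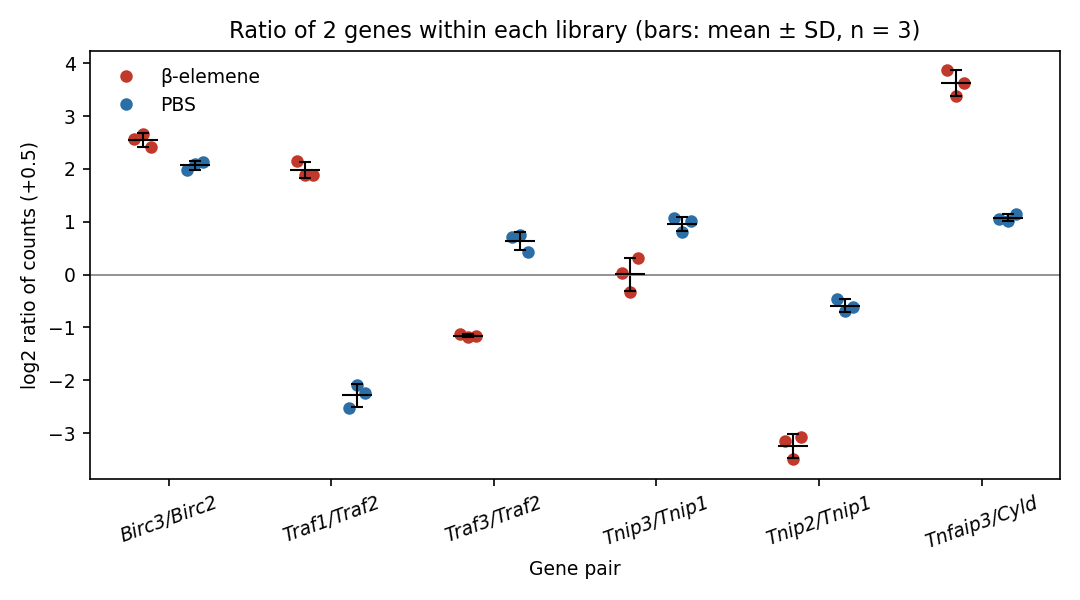
Log2 ratio of read counts (0.5 added) for 6 gene pairs in each library; dots are single libraries (β-elemene left, PBS right of each pair) and bars give the mean ± SD of 3 libraries. Traf1/Traf2 lies near 1.98 with β-elemene and near -2.29 with PBS, while Birc3/Birc2 differs by 0.48 only.

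Levels were compared between genes per kilobase of transcript, with the longest annotated transcript matched to a RefSeq mRNA as the length. On this scale (CPM per kb) the β-elemene libraries had Tnfaip3 at 296 ± 37.0, Tnip1 at 231 ± 13.8, Traf1 at 190 ± 26.4, Tnip3 at 184 ± 30.6 and Birc3 at 108 ± 4.08 (SD, n = 3). Tnfaip3 did not overlap Tnip1, whereas Tnip1, Traf1 and Tnip3 overlapped their neighbours in that order. Traf2 at 36.7 ± 1.22 and Tnip2 at 36.6 ± 4.34 overlapped, and Birc2 at 14.8 ± 1.38, Cyld at 13.3 ± 0.775 and Traf3 at 7.11 ± 0.400 followed, of which Birc2 and Cyld overlapped. In the PBS libraries Tnip3 at 35.9 ± 4.12 and Birc3 at 30.7 ± 3.93 came first and overlapped. Tnip1, Tnip2 and Tnfaip3, at 23.3 ± 1.91, 23.2 ± 1.64 and 22.5 ± 2.10, were not separable from each other. Then came Traf2 at 9.26 ± 1.16, Traf3 at 6.16 ± 0.00922, Cyld at 5.91 ± 0.319, Birc2 at 5.85 ± 0.486 and Traf1 at 2.50 ± 0.485, and Traf3, Cyld and Birc2 overlapped.

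Summed over the 10 genes, the level was 1118 ± 90.8 CPM per kb with β-elemene and 165 ± 15.04 with PBS (SD, n = 3 each). Tnfaip3 made up 26.4 ± 1.31% of that sum with β-elemene and 13.6 ± 0.308% with PBS. Traf1 made up 17.0 ± 1.31% with β-elemene and 1.51 ± 0.223% with PBS. Tnip2 made up 3.27 ± 0.147% with β-elemene and 14.1 ± 0.718% with PBS, and Birc3 9.67 ± 0.510% with β-elemene and 18.5 ± 0.788% with PBS. The order and the shares rest on the length used. With the union of all annotated exons, an alternative chosen after the data were seen, Traf1 held 8.05% with β-elemene and 0.660% with PBS, and Tnip1 came ahead of Tnfaip3 with β-elemene, at 31.3% and 29.1%. With PBS, Tnip3 then stood at 12.4 CPM per kb, after Tnip1 at 19.6, Tnip2 at 17.2, Birc3 at 16.3 and Tnfaip3 at 13.8.

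Replicates moved in part together. In the β-elemene group, replicate 2 was the lowest library for 8 of the 10 genes, where it was the lowest for 35.2% of all genes tested. In the PBS group, replicate 3 was the highest library for all 10 genes, where it was the highest for 36.4% of all genes tested. The cause was not tested, and leaving out either library left all 10 genes called higher.

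Other genes of the pathway were taken from 6 lists with 63 genes, of which 60 were tested. Of these, 37 were called higher, 10 lower and 13 neither, with a median log2 fold change of 0.57 against -0.06 over all genes tested. With library size alone 24 were called higher and 28 lower, and the median was -0.07 against -0.70 over all genes tested, so the list and all genes shifted alike. The counts for each list below are to be read against the shares over all genes, which were 36.6% higher and 40.2% lower with TMM and 18.9% higher and 69.8% lower with library size alone. In the KEGG NF-kappa B signalling pathway as annotated in the deposited table, which names 6 of the 10 members (Tnfaip3, Traf1, Traf2, Traf3, Birc2 and Birc3), 50 of the 75 other tested genes were called higher and 16 lower, and with library size alone 36 were higher and 33 lower. In the KEGG TNF signalling pathway, which names the same 6 members, 67 of the 93 other tested genes were called higher and 18 lower. With library size alone these were 51 and 35. Both annotations were chosen after the data were seen, and the table lists no pathway for Tnip1, Tnip2 and Tnip3.

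**Figure D4:**
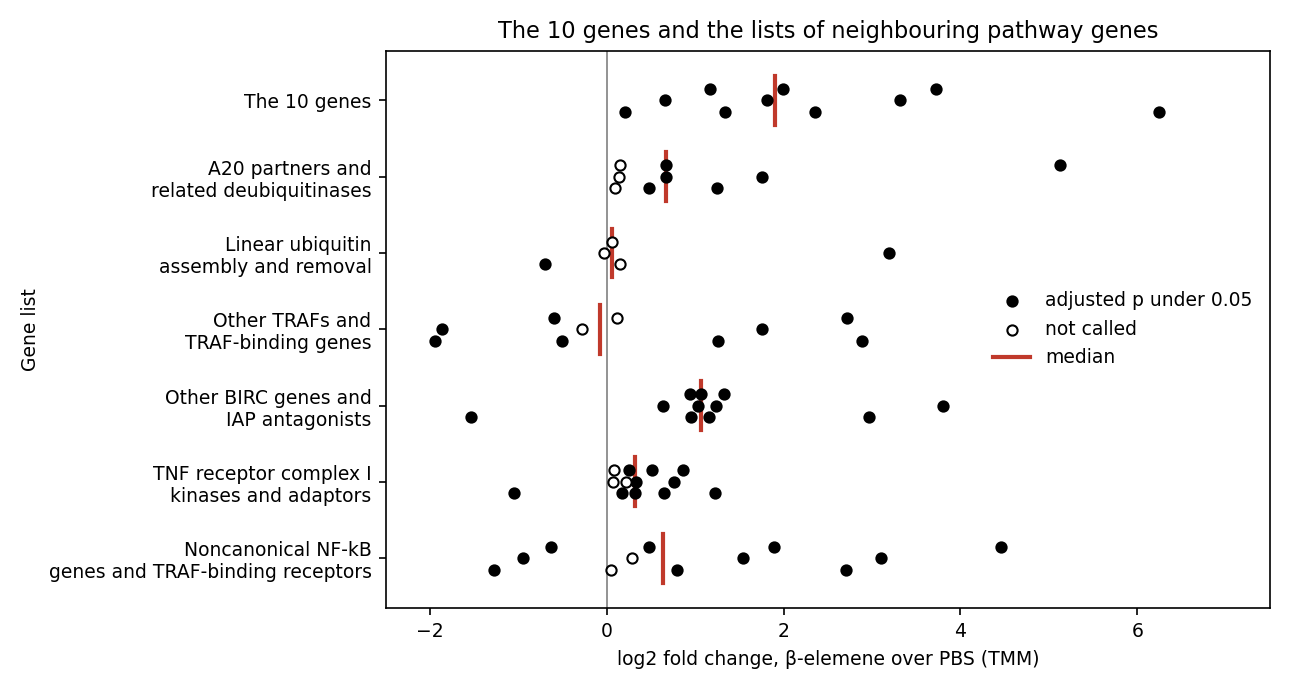
Log2 fold change (β-elemene over PBS, TMM scaling) of each tested gene, by list; filled dots were called (edgeR adjusted p under 0.05), open dots were not, and red bars are medians. With this scaling the 10 genes all lie right of 0 with a median of 1.90 (Traf3 lies left of 0 with upper quartile factors or library size alone), while the lists around them range from a median of -0.08 (other TRAFs) to 1.07 (other BIRC genes and IAP antagonists).

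Of 9 tested A20 partners and related deubiquitinases, 6 were called higher and 3 were not called, and with library size alone, which called 69.8% of all genes lower, 3 were higher and 4 lower. Tax1bp1, an adaptor that brings A20 to its substrates, had 866 ± 109 CPM with β-elemene and 258 ± 12.8 with PBS (log2 fold change 1.75, SE 0.09, edgeR adjusted p = 9.48e-10). Usp18, which removes the ubiquitin-like protein ISG15 and is an interferon-induced gene, rose by 5.12 on the log2 scale. Otud5 rose by 1.24, and Otud4 by 0.67, a call lost with library size alone (log2 fold change 0.03, edgeR adjusted p = 0.594). In the linear ubiquitin list, Rnf31, the catalytic subunit HOIP of the LUBAC ligase, had 196 ± 14.6 CPM with β-elemene and 21.5 ± 1.77 with PBS. Its log2 fold change of 3.19 (SE 0.08) stood beside values of -0.03 for Rbck1 and 0.15 for Sharpin, the accessory subunits, neither of which was called. Otulin, the enzyme that removes linear chains, fell by 0.70 on the log2 scale (SE 0.07, edgeR adjusted p = 1.48e-06). In this list 1 of 5 genes was called higher and 1 lower, and with library size alone 1 was higher and 4 lower, where 69.8% of all genes were lower.

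Of 10 tested other TRAFs and TRAF-binding genes, 4 were called higher and 4 lower, near the shares over all genes of 36.6% and 40.2%. Under library size alone 4 were higher and 6 lower. Tank, which binds TRAFs and the kinase TBK1, had 359 ± 27.9 CPM with β-elemene and 48.7 ± 0.717 with PBS (log2 fold change 2.88, SE 0.07). Trafd1, a feedback inhibitor with a TRAF-type zinc finger, rose by 2.72, and Traf3ip2, the adaptor of interleukin-17 receptors, rose by 1.75. Traf5 had 35.6, 47.5 and 30.6 CPM with β-elemene, against 58.4, 57.6 and 55.9 with PBS, and was called lower (log2 fold change -0.60, SE 0.14, edgeR adjusted p = 0.0038). Traip, a ubiquitin ligase of DNA repair, fell by 1.86 at low counts of 6 to 13 reads with β-elemene and 52 to 66 with PBS. Traf6, the adaptor of Toll-like and interleukin-1 receptors, was not called with TMM, at 0.12 (edgeR adjusted p = 0.127). With upper quartile factors or library size alone all 10 tested genes of this list were called, so that result rests on the scaling. Traf4 did not pass the filter, with 3, 1 and 2 reads in the β-elemene libraries, against 7, 7 and 3 in the PBS libraries.

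Of 11 tested BIRC genes and IAP antagonists outside the cIAPs, 10 were called higher and 1 lower, and 8 were higher and 1 lower with library size alone. Xaf1, an interferon-induced antagonist of XIAP, had 381 ± 13.0 CPM with β-elemene and 27.3 ± 3.82 with PBS (log2 fold change 3.80, SE 0.09). Arel1, a ubiquitin ligase that targets IAP antagonists, rose by 2.97, and Htra2, a mitochondrial protease that binds IAPs, rose by 1.32. The gene called lower was Birc5, which encodes survivin, a protein of mitosis, with 3.88 ± 0.762 CPM under β-elemene and 11.3 ± 2.68 under PBS (log2 fold change -1.54, SE 0.20, edgeR adjusted p = 1.92e-05). Naip1, Naip2, Naip5 and Naip6, all among those called higher, are close relatives. Sequence shared between them was not measured here, and their single values are uncertain. That reaches the count of this list and its median log2 fold change of 1.07, which is the value of Naip5.

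Genes of the receptor-proximal TNF complex had a median log2 fold change of 0.32. Of 13 tested, 9 were called higher, 1 lower and 3 neither. Under library size alone 3 were higher and 9 lower, near the shares over all genes under that scaling (18.9% and 69.8%). Tab2, an adaptor of the kinase TAK1, rose by 1.22 on the log2 scale, Tnfrsf1a, the main TNF receptor, by 0.86, and the ubiquitin-conjugating enzyme gene Ube2d3 by 0.76. Tab1, another TAK1 partner, fell by 1.05. With library size alone the log2 fold changes were 0.59 for Tab2, 0.22 for Tnfrsf1a, 0.12 for Ube2d3 and -1.69 for Tab1, each still called. In the list of noncanonical NF-kB genes and TRAF-binding receptors, 7 of 12 were called higher and 3 lower, and 5 were higher and 4 lower with library size alone. Cd40, a receptor that engages TRAF2 and TRAF3, had 2446 ± 160 CPM with β-elemene and 111 ± 20.8 with PBS (log2 fold change 4.46, SE 0.14). Nfkb2, the precursor of the noncanonical subunit, rose by 3.10, Tnfrsf14 by 2.71 and Tnfrsf1b, which binds TRAF2, by 1.89. Map3k14, which encodes NIK, was called lower, with 9.04, 13.5 and 11.7 CPM with β-elemene, against 20.8, 19.9 and 25.1 with PBS (log2 fold change -0.95, SE 0.14, edgeR adjusted p = 5.21e-05). Tnfrsf12a fell by 1.28. These are transcript levels, and ubiquitin chains, protein amounts and NIK turnover were not measured.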

How the data were processed

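Total RNA with an integrity number of at least 7 went into stranded mRNA libraries and paired-end sequencing, per the labels' protocols. The submitters' processing notes list HISAT2 2.2.1.0 and GRCm38.p6 (mm10). What the authors deposited is a table of unnormalized counts for each gene. How reads were counted, and with which strand setting, is not given in the sources used here. Groups and replicate numbers came from sample titles, and columns were matched by the sample descriptions. Of the gene symbols, 27 stood as numbers and were restored by gene identifier from the RefSeq table of GRCm38.p6, the source of the coordinates.

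Low genes were removed by filterByExpr (at least 10 counts, total at least 15), and TMM factors were applied. CPM values use the scaled library sizes. The test was the quasi-likelihood test of edgeR 4.0.16 (R 4.3.3, robust, group as the only term) with Benjamini-Hochberg adjustment over 11459 genes. Each SE is the log2 fold change divided by the root of its F statistic. Alternatives used other scalings and filters, DESeq2 1.42.0, limma-voom 3.58.1, a replicate block and each library left out. The pipeline was tested on simulated data. No replicate pair agreed within sampling noise (chi-square per degree of freedom 3.70 to 13.2). Lengths came from GENCODE M21 (GRCm38). From each pathway list, the text names up to 4 called genes, the largest changes among those averaging 1 CPM or more, up to 2 of opposite sign, and genes from the 4 nearest to Tnfaip3, of which 1 is not reported here; Traf4, Traf6, Rbck1, Sharpin and the Naip genes were added after their values were seen. The members and lists were chosen with earlier results of these data known, and the motifs after the windows were seen.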

Additional observations from a re-analysis of the deposited data

How the results depend on the processing

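The 10 genes were called higher with TMM, median-of-ratios factors, no filter, a filter of 1 CPM in 3 libraries, DESeq2, limma-voom and each library left out. Calls were common in these settings. Of all genes tested, 60.5% (no filter) to 77.8% (filter of 1 CPM in 3 libraries) were called in either direction, and 36.6% were called higher with TMM. Tnfaip3, Tnip1, Tnip3, Cyld, Traf1, Traf2, Birc2 and Birc3 kept call and direction under every alternative run. With library size alone the log2 fold change of Tnip2 was 0.020 and that of Traf3 was -0.43, so that 1 of the 10 genes was called lower, where TMM gave 0. With upper quartile factors Traf3 stood at -0.11. Of the other pathway genes, library size alone called 24 higher and 28 lower, and upper quartile factors called 18 lower, where TMM gave 37 higher and 10 lower. These alternatives differ from TMM only in the library factors.

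With 1 library left out, the Traf3 log2 fold change ranged from 0.18 to 0.27 (highest edgeR adjusted p = 0.0316) and that of Tnip2 from 0.61 to 0.78. No difference of a gene pair changed sign with a library left out or with 1 count added in place of 0.5. Deviations from the group mean correlated at -0.02 to 0.08 between same-numbered libraries of the 2 groups and at -0.08 to 0.06 between the others. With 3 libraries per group this cannot show whether the samples were paired. A replicate block gave the same 10 calls, with Tnfaip3 at 3.71 and Traf3 at 0.21, and 8793 calls over all genes, where the fit without it made 8791. Depth did not limit the 10 genes, whose lowest count was 118.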
